A study of Mus musculus with 8 samples.

Results

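The mouse gene Tnfrsf1a, which encodes the first receptor for tumour necrosis factor, lies on chromosome 6 in a dense run of genes, and 38 protein-coding neighbours of it were followed here across tumours grown in wild-type and in receptor-deficient hosts. The neighbours came from a fixed list of genes near Tnfrsf1a that left out the receptor itself. The rule uses no measured value, although the list was drawn up with earlier results of these data known. It does not hold every gene of the region: 62 other protein-coding genes stand within 50 places of the receptor in gene order. Of these 38 genes, 34 had at least 1 probe set that the array annotation assigns to that gene alone, 68 probe sets in all among the 34945 with a single gene. Lpar5, Ntf3, Dyrk4 and Ano2 had no such probe set and were not analysed here. Each gene was represented by its brightest probe set, which gave 18193 genes in the whole series, and 28 of the 34 neighbours were bright enough to be tested, against 11345 genes in all. Scnn1a, Ing4, Gnb3, Kcna1, Akap3 and Lag3 fell below that level, which was set at the median of all probe sets other than controls and corresponds to a signal of 68.8.

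The study injected B16F1 cells, a melanoma line of C57BL/6 origin, under the skin of the right hind limb of 2 kinds of host, each labelled as C57BL/6 and 8 to 12 weeks old. The wild-type hosts were C57BL/6-NCr mice, and the deficient hosts, labelled TNFR 1, 2 -/-, were of the stock B6;129S-Tnfrsf1a[tm1Imx] Tnfrsf1b[tm1Imx]/J, in which both receptor genes are targeted. Tumours of 268 to 478 mm3 were left untreated or given one dose of 20 Gy of X-rays and were taken 5 h later. RNA from the whole tumours of 5 to 7 mice was pooled for each of the 4 groups, and each pool was hybridised to 2 arrays. The 8 arrays are therefore technical duplicates of 4 pools, and no value below measures the spread between mice. All tumour cells carried intact receptor genes whatever the host, so that the host genotype applied to the stroma, vessels and blood cells of the tumour alone. In such bulk samples, fewer cells of a type and less RNA per cell cannot be told apart.

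A targeted allele is inherited together with the chromosome segment that surrounds it. Where the embryonic stem cells used for targeting came from another strain, backcrossing leaves a stretch of that strain's sequence on each side of the allele, and genes in the stretch can differ from those of the control host in sequence as well as in expression. Whether the deficient hosts carried 129 alleles at the genes described here is not given in the sources used here. The question put to the data was whether the neighbours of Tnfrsf1a differed between hosts more than genes elsewhere did.

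By order along the chromosome, 8 of the 34 measured genes lie on the side of Tnfrsf1a that starts with Plekhg6, Cd9 and Vwf, and 26 lie on the side that starts with Scnn1a. Places below count the annotated protein-coding genes from the receptor. Promoter sequence from RefSeq (assembly GRCm38.p6) was held for 26 of the 38 genes. The stretches below belong to Nop2, Lpcat3 and Vamp1, which were called higher in the deficient hosts, and to the gap between Emg1 and Phb2, 2 neighbouring genes read away from each other. They are shown as upstream sequence of flanking genes, of which Emg1 and Phb2 were not called. Each is written 5′ to 3′ on the plus strand, and capitals mark a CCAAT box (CCAAT), a GC box (GGGCGG) or an ETS-type site (CCGGAAG) on either strand, with overlapping matches merged. The Nop2 stretch is chr6:125131633-125131882, that of Lpcat3 chr6:124662854-124663093, that of Vamp1 chr6:125215331-125215580, and the gap between Emg1 and Phb2 is chr6:124712187-124712288.
Nop2: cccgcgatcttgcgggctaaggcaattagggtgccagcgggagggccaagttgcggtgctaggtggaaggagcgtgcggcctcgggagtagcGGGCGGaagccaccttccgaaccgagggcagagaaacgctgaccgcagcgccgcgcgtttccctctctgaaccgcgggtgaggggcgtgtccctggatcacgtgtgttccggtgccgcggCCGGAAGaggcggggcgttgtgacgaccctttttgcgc
Lpcat3: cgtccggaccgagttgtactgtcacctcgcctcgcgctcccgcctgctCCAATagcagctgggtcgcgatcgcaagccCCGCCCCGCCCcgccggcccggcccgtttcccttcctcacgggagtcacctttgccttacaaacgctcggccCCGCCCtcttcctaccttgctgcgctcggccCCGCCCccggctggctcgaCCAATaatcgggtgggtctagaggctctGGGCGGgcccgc
Vamp1: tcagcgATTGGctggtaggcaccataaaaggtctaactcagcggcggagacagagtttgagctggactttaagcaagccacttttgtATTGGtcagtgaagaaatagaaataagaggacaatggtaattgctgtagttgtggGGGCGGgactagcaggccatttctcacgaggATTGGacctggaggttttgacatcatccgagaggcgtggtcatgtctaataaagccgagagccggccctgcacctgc
Emg1 and Phb2: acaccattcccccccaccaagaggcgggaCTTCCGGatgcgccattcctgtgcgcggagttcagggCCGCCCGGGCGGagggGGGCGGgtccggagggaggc

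Over the 37 promoters of 250 bases held for the 26 genes, 27 held a GC box, 14 a CCAAT box and 8 the ETS-type site. TTTGAA, the cell-cycle homology region of genes read late in the cell cycle, was searched as well and was in 5 of them. Among all 32851 RefSeq promoters of that length, the same searches on both strands found the GC box in 32.7%, the CCAAT box in 33.8%, the ETS-type site in 6.9% and TTTGAA in 16%. Promoters of one gene can overlap, and a match describes letters in this window only.

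The 4 pools also differed in ways that concern every gene. The authors' signals were scaled to the same trimmed mean of 500.00 on each array, and the array medians ran from 62.2 to 79.5. The poly-A controls, bacterial transcripts added to the RNA before labelling, were present on the wild-type arrays and near background on the deficient-host arrays: the mean signal was 17421 against 17.3 for dap and 3887 against 14.5 for lys. Host and preparation of the labelled RNA therefore cannot be told apart. The transcript of Tnfrsf1a itself was not called between hosts, with a log2 difference of 0.22 ± 0.16 (SE; adjusted p = 0.314), in tumours whose own cells read the intact gene. That of Tnfrsf1b was lower in the deficient hosts by limma, at -1.06 ± 0.23 (adjusted p = 0.00708). Other cell markers also moved with host. Of the fibroblast markers, 4 of 6 tested were called higher in the deficient hosts and 1 lower, with a median of 0.94 and summed signals of 4719 to 4823 and 7292 to 7325 in untreated and irradiated wild-type tumours, against 14801 to 15178 and 9972 to 9991 in deficient ones. All 4 neutrophil markers tested were called lower, with sums of 3602 to 4002 and 23148 to 24012 against 979 to 992 and 1117 to 1162. Their part in the differences of the flanking genes was not tested. The 6 melanocyte markers were among the brightest transcripts, with summed signals of 132935 to 172337.

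**Figure D1:**
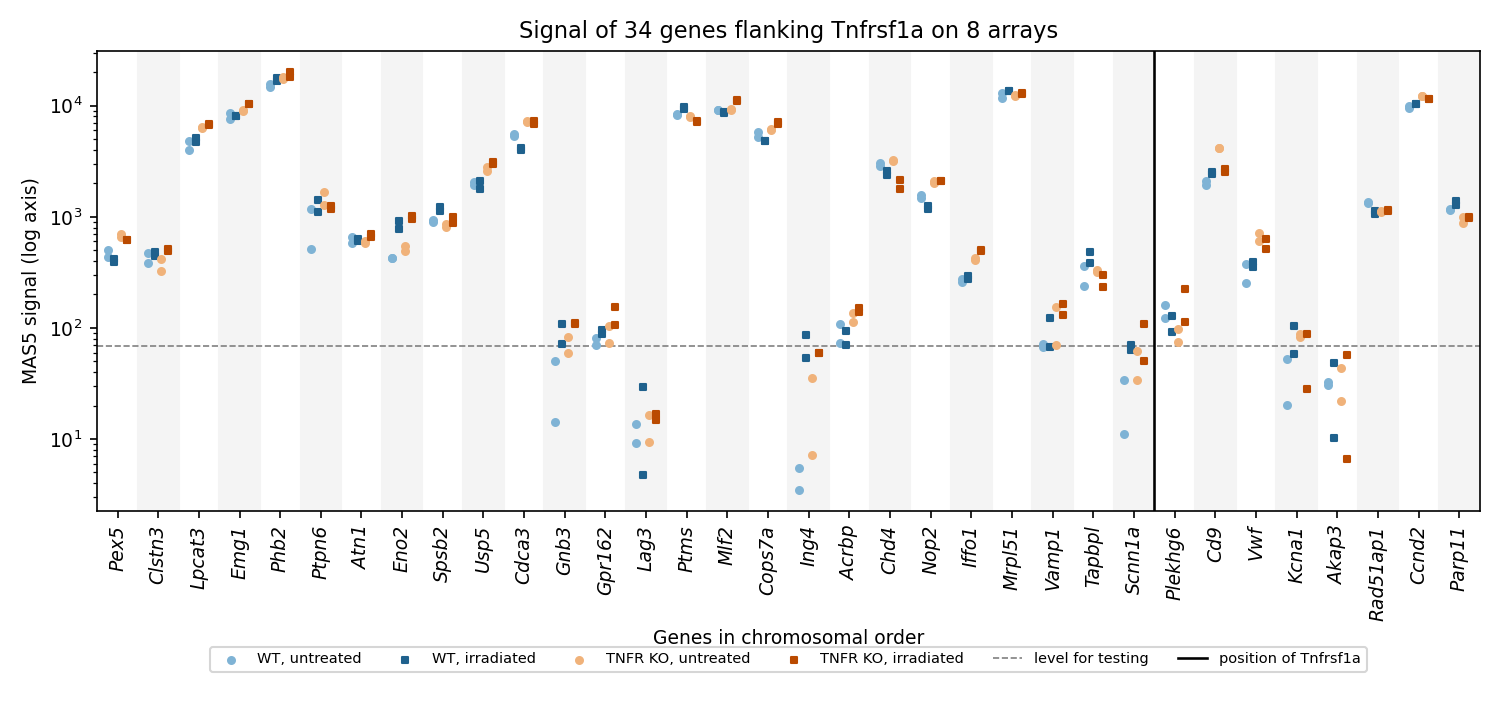
MAS5 signal (log axis) of the 34 measured flanking genes on each of the 8 arrays, in chromosomal order, with a line at the position of Tnfrsf1a and a dashed line at the level for testing, 68.8; each point is 1 array, light for untreated and dark for irradiated, blue for wild-type (WT) and orange for deficient (TNFR KO) hosts, and the 2 points of a pool are technical duplicates. Vwf and Iffo1 show all 4 deficient-host arrays above all 4 wild-type arrays, while the arrays of Vamp1 overlap and those of Lag3 lie below 68.8.

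Over both treatments, 9 of the 28 tested flanking genes were higher in tumours of the deficient hosts: Vwf, Iffo1, Nop2, Cdca3, Acrbp, Pex5, Vamp1, Usp5 and Lpcat3. Their differences were modest, from 1.42-fold for Lpcat3 to 1.78-fold for Vwf, and no flanking gene was called lower in this fit. The 9 calls are 32.1% of the tested neighbours, against 30.9% of all tested genes called in either direction, 12.0% called higher and 18.9% called lower. The share called among the neighbours was thus near that of the whole array, and all 9 calls were upward. Over all genes 38.9% of the calls were upward, or 19.4% of 2586 calls with arrays centred on their median, where the neighbours gave 2 calls, both upward, against 22.8% of all genes called. Lower calls among the neighbours did appear under other error models. With limma-trend they were 1 of 11 calls, where 39.4% of all genes were called. With the 8 arrays taken as separate samples they were 3 of 17, where 56.8% of all genes were called. A call here is a Benjamini-Hochberg adjusted p below 0.05 in limma, fitted to the 4 pool means on the scale log2(signal + 16) with terms for host and radiation. With 4 pools and these terms, the 1 residual degree of freedom of a gene measures how unequally the hosts responded to radiation. The fit combines it with 9.52 prior degrees of freedom drawn from all tested genes. The SE of a gene is therefore mostly a value shared by all genes.

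Vwf encodes von Willebrand factor, the glycoprotein of endothelial cells and platelets that tethers platelets to injured vessel walls, and it lies at the third place from Tnfrsf1a. Its signals were 251 and 374 on the untreated and 355 and 394 on the irradiated wild-type arrays, and 721 and 607 on the untreated and 637 and 511 on the irradiated deficient-host arrays. All 4 deficient-host arrays lay above all 4 wild-type arrays. The host effect was 0.83 ± 0.18 (SE, log2; adjusted p = 0.0061), the largest among the 28. Of the markers of endothelium, 5 of 9 tested were called higher in the deficient hosts and 0 lower, against 12.0% and 18.9% of all tested genes. In irradiated pools alone, Cdh5 (-0.19) and Emcn (-0.34) were lower in the deficient host and the other tested ones higher. The summed signal of the endothelial markers was 2764 to 2801 in untreated and 3118 to 3221 in irradiated wild-type tumours, against 4506 to 4801 and 3901 to 4149 in the deficient hosts. Tek, another endothelial marker, was too dim to be tested and is part of these sums. Of the platelet markers, 0 of 4 tested were called, with a summed signal of 1731 to 1752 and 2891 to 3100 in wild-type and 2615 to 2887 and 2866 to 3096 in deficient hosts. The part of vessel content in the Vwf difference was not tested.

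Among the genes of the cell surface and membranes, 2 more were called. Vamp1, the synaptobrevin of vesicle fusion in nerve and neuroendocrine cells, had signals of 71.9 and 67.1 untreated and 122 and 67.1 irradiated in wild-type hosts, and of 70.6 and 155.5 untreated and 164 and 130.2 irradiated in deficient hosts. Its host effect was 0.56 ± 0.16 (adjusted p = 0.0250 by limma), but the arrays overlapped, and the duplicates of the untreated deficient pool differed more than 2-fold. These signals were dim, and the other probe set of Vamp1, below the level for testing, differed by -0.24. Lpcat3, which loads polyunsaturated fatty acids onto lysophospholipids in the endoplasmic reticulum, had signals of 3979.7 and 4784 untreated and 4669 and 5132 irradiated in wild-type hosts, against 6387 and 6289.9 untreated and 6802 and 6752 irradiated in deficient hosts. The groups did not overlap, and the host effect was 0.50 ± 0.16 (adjusted p = 0.0371). Cd9, a tetraspanin of platelets, B cells and many epithelia at the second place from Tnfrsf1a, missed the threshold over both treatments at 0.55 (adjusted p = 0.077), although all 4 deficient-host arrays were above all 4 wild-type arrays.

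The other membrane and immune genes were not called and did not share a direction. Tapbpl, a tapasin-related editor of peptides on class I molecules, had signals of 361 and 239 untreated and 380.1 and 484 irradiated in wild-type hosts, and of 334 and 316 untreated and 233 and 301 irradiated in deficient hosts, a difference of -0.26. Plekhg6, a guanine nucleotide exchange factor and the first neighbour on its side, had signals of 123 and 161 untreated and 127 and 92.8 irradiated in wild-type hosts, and of 74.2 and 98.6 untreated and 225 and 112 irradiated in deficient hosts, a difference of -0.06. In both genes the arrays of the hosts overlapped. Clstn3, a calsyntenin of synaptic membranes, stood at -0.04. Ptpn6, the phosphatase SHP-1 of blood cells, had signals of 1187 and 514 untreated and 1423 and 1115 irradiated in wild-type hosts, and of 1668 and 1271 untreated and 1245 and 1188 irradiated in deficient hosts; its difference was 0.42 (adjusted p = 0.162). The 6 general leukocyte markers, of which 1, Ptprc, was called lower and 0 higher, had summed signals of 2116 to 2401 and 4159 to 4316 in untreated and irradiated wild-type tumours, and of 3579 to 3663 and 2457 to 2549 in the deficient hosts. Ptpn6, on its brightest probe set, and the sum of these markers were thus both higher in the untreated deficient pool than in the untreated wild-type pool. Ptprc itself was lower there, at 126 against 158. The other bright probe set of Ptpn6 differed by 0.14 untreated. The part of leukocytes in its values was not tested.

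Of the genes for nuclear and nucleolar proteins, 2 were called. Iffo1, an intermediate filament family protein of the nucleus, had signals of 278 and 259.8 untreated and 295 and 277 irradiated in wild-type hosts, and of 425 and 409 untreated and 496.5 and 498 irradiated in deficient hosts. The duplicates were close and the groups did not overlap, and the host effect was 0.68 ± 0.16 (adjusted p = 0.0102). Nop2, a nucleolar RNA methyltransferase of ribosome production, had signals of 1566 and 1484 untreated and 1259 and 1182.5 irradiated in wild-type hosts, against 2034 and 2089 untreated and 2118 and 2116 irradiated in deficient hosts. Again no array overlapped, and the effect was 0.61 ± 0.17 (adjusted p = 0.0212). Emg1, another ribosome-production methyltransferase, was not called at 0.26, nor were Atn1, a transcriptional corepressor, at 0.05, and Rad51ap1 at -0.11. Chd4, the ATPase of the NuRD chromatin complex, had signals of 3074 and 2888 untreated and 2608 and 2397.5 irradiated in wild-type hosts, and of 3225 and 3187 untreated and 1769 and 2143 irradiated in deficient hosts, an effect of -0.13 with overlapping arrays. Parp11, an ADP-ribosyltransferase, had the lowest value of the 28, at -0.37 (adjusted p = 0.105). Its signals were 1156 and 1169 untreated and 1381 and 1289 irradiated in wild-type hosts, and 993 and 879.6 untreated and 978.5 and 997 irradiated in deficient hosts. All 4 deficient-host arrays lay below all 4 wild-type arrays without a call in the fit.

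Cell-cycle and protein-turnover genes gave 2 calls. Cdca3, a trigger of mitotic entry that is made late in the cell cycle, had signals of 5607 and 5359 untreated and 4193 and 4033 irradiated in wild-type hosts, and of 7107 and 7296 untreated and 7326 and 6836 irradiated in deficient hosts. The host effect was 0.59 ± 0.17 (adjusted p = 0.0259), with no overlap of arrays. Markers of proliferation were mixed: 0 of 5 tested were called higher and 2, Mki67 and Bub1, lower. Cdc20 (0.44) and Aurkb (0.34) were positive and Top2a (-0.26) negative, none of them called. The summed signal of the 5 was 19206 to 20312 and 14333 to 14505 in wild-type and 19466 to 20204 and 14427 to 14470 in deficient hosts. The part of proliferation in the Cdca3 difference was not tested. Usp5, which takes apart free ubiquitin chains, had signals of 2069 and 1919 untreated and 2119 and 1797 irradiated in wild-type hosts, against 2575 and 2835 untreated and 3104 and 2987 irradiated in deficient hosts. Its effect was 0.54 ± 0.16 (adjusted p = 0.0306), again without overlap. Cops7a, a COP9 signalosome subunit, was not called at 0.34. Ccnd2, cyclin D2, had signals of 9593 and 9868 untreated and 10432 and 10264 irradiated in wild-type hosts, and of 12249 and 12308 untreated and 11487 and 11589 irradiated in deficient hosts. The groups did not overlap, but the effect of 0.25 was not called. Spsb2, a substrate adaptor of a ubiquitin ligase, had signals of 930.1 and 901 untreated and 1214 and 1123 irradiated in wild-type hosts, and of 870.1 and 813 untreated and 989 and 874.5 irradiated in deficient hosts, and its effect of -0.22 was not called either.

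The remaining calls were in a peroxisomal and a sperm gene. Pex5, the import receptor for most enzymes of the peroxisome, had signals of 435 and 499 untreated and 394 and 413 irradiated in wild-type hosts, and of 704 and 661.5 untreated and 614.5 and 614.4 irradiated in deficient hosts. The groups did not overlap, and the effect was 0.56 ± 0.16 (adjusted p = 0.0237). Acrbp, a proacrosin-binding protein known from the sperm acrosome, was dim, with signals of 72.6 and 109 untreated and 93.6 and 69.6 irradiated in wild-type hosts, and of 136.5 and 114 untreated and 139 and 152 irradiated in deficient hosts. Its arrays did not overlap, and the effect was 0.58 ± 0.17 (adjusted p = 0.0254). Mrpl51 of the mitochondrial ribosome was among the brightest, with signals of 11797 and 13008 untreated and 13612 and 13659.6 irradiated in wild-type hosts, and of 12442 and 12351 untreated and 13100.3 and 12699.8 irradiated in deficient hosts. Its hosts overlapped, at -0.04. Phb2, a prohibitin of the inner mitochondrial membrane, at 0.19, Eno2, the enolase of neurons, at 0.25, Mlf2, a myeloid leukaemia factor family protein, at 0.19, Ptms, parathymosin, at -0.22, and Gpr162, an orphan receptor, at 0.30 were not called.

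The 6 genes below the filter had a mean under the level for testing, 68.8, although single arrays of some exceeded it. Scnn1a, the first neighbour on its side and a subunit of the epithelial sodium channel, had signals of 34.1 and 11 untreated and 63.9 and 70.2 irradiated in wild-type hosts, and of 34 and 61.9 untreated and 108.5 and 50.8 irradiated in deficient hosts. Gnb3, a G protein beta subunit, had 50.5 and 14.2 untreated and 71.6 and 107.6 irradiated in wild-type and 59.3 and 82.5 untreated and 109.6 and 109.5 irradiated in deficient hosts. Ing4, a chromatin reader of the inhibitor-of-growth family, had 3.5 and 5.5 untreated and 53.1 and 86.6 irradiated in wild-type and 35.7 and 7.2 untreated and 58.9 and 60 irradiated in deficient hosts. In these 3 genes the irradiated wild-type pool was over 2 times the untreated one, with the hosts overlapping. Kcna1, a voltage-gated potassium channel, had 20.1 and 53.0 untreated and 58.6 and 105.0 irradiated in wild-type and 82.8 and 88.3 untreated and 88.7 and 28.4 irradiated in deficient hosts. Akap3, a sperm anchoring protein, ran from 6.6 to 56.5 over the 8 arrays. Lag3, an inhibitory receptor of activated T cells, ran from 4.7 to 29.6, and 5 of the 6 T and NK cell markers measured were also too dim to be tested. These genes were not tested for a host difference.

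These calls were close to their threshold in several cases, and some were lost when 1 array was left out. Every such refit also called fewer genes over the whole array. A lost call therefore need not mean a smaller difference. Nop2 lost its call without replicate 1 of the untreated wild-type pool, while its difference went from 0.61 to 0.63. Vwf and Iffo1 kept their call with any 1 of the 8 arrays left out. Without replicate 1 of the untreated wild-type pool, limma no longer called Acrbp (0.45), Cdca3 (0.60), Lpcat3 (0.44), Nop2 (0.63), Pex5 (0.51), Usp5 (0.56) and Vamp1 (0.58), and 2 calls remained. Without replicate 2 of that pool, Cdca3 (0.57), Lpcat3 (0.57), Nop2 (0.59), Usp5 (0.51) and Vamp1 (0.54) lost their call. Without replicate 1 of the irradiated wild-type pool, Acrbp (0.67), Cdca3 (0.60), Lpcat3 (0.47), Nop2 (0.63), Pex5 (0.55) and Usp5 (0.60) did, and without its replicate 2, Acrbp (0.49), Usp5 (0.48) and Vamp1 (0.37). Leaving out a deficient-host array ended calls as well. Leaving out replicate 1 of the untreated pool ended the calls of Acrbp (0.52), Cdca3 (0.60), Lpcat3 (0.50) and Pex5 (0.54), and leaving out replicate 2 those of Cdca3 (0.58), Lpcat3 (0.51), Usp5 (0.50) and Vamp1 (0.31). Leaving out replicate 1 of the irradiated pool ended those of Cdca3 (0.56), Lpcat3 (0.50), Usp5 (0.52) and Vamp1 (0.48), and leaving out replicate 2 those of Acrbp (0.55), Cdca3 (0.61), Lpcat3 (0.51), Nop2 (0.61) and Usp5 (0.55). The log2 differences in parentheses kept their sign throughout. With arrays centred on their median in place of the authors' scaling, the calls were those on Vwf and Iffo1.

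**Figure D2:**
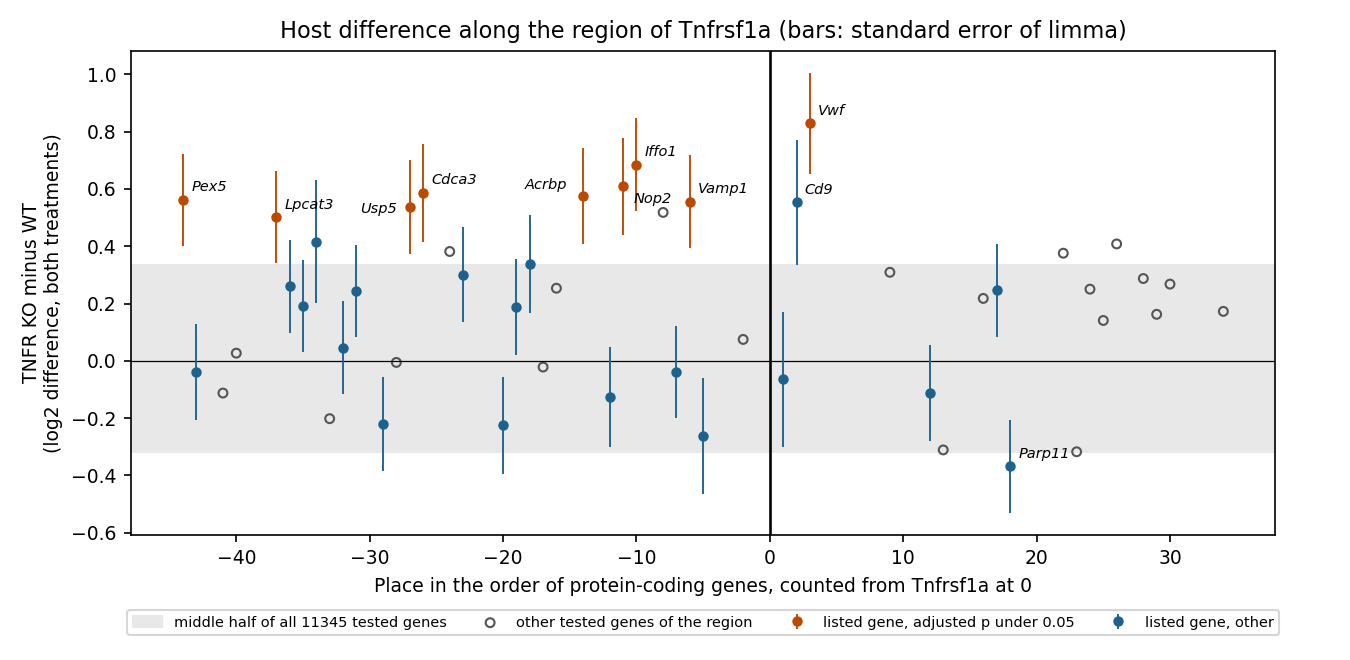
Host difference over both treatments (log2, TNFR KO minus WT) of the 28 tested flanking genes against their place in the gene order from Tnfrsf1a; bars are the SE of limma, orange marks the 9 called genes, blue the others, open circles the 21 other tested genes of the region, and the grey band the middle 50% of all 11345 tested genes. The called genes lie from Pex5 at place -44 to Vwf at place 3, among flanking genes down to -0.37.

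Counting arrays gives a description of the same pattern without the fit. In 13 of the 28 genes all 4 deficient-host arrays lay above all 4 wild-type arrays, against 22.5% of all tested genes, and in 2, Parp11 and Ptms, all lay below, against 21.7%. The 13 were Acrbp, Ccnd2, Cd9, Cdca3, Cops7a, Emg1, Iffo1, Lpcat3, Mlf2, Nop2, Pex5, Usp5 and Vwf. The arrays of a pool share their RNA, so these counts rest on 2 pools against 2.

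Positive differences were more frequent among the neighbours than among all genes, and by the median their sizes were not larger over both treatments. Of the 28, 19 had a positive host difference (67.9%), against 57.4% of all tested genes, and their median was 0.25, against 0.09. This lean was not particular to the list. The positive share was 71.4% among the 21 other tested genes of the region, with a median of 0.17. Within 50 places of Tnfrsf1b it was 78.8%, with a median of 0.29. Without the flanking genes, the medians of single chromosomes ran from -0.18 to 0.18. Regardless of sign, the median difference was 0.28 among the neighbours and 0.33 among all genes, and the 90th percentile was 0.59 against 0.88. A difference over 0.5 was found in 10 of 28 (35.7%) and in 30.3% of all genes. The neighbours ranged from -0.37 to 0.83, while all genes ranged from -4.01 to 2.88. By the median and the 90th percentile, the host differences beside Tnfrsf1a over both treatments were not larger in size than those of all genes. The share over 0.5 was higher beside it. Regardless of sign, the median was 0.29 against 0.33 over all genes in untreated pools, and 0.41 against 0.37 in irradiated ones. Normalisation mattered for the sign of a few genes: with median centring Atn1 turned negative and 18 were positive, and with quantile normalisation Clstn3 turned positive and 21 of 29 tested were.

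**Figure D3:**
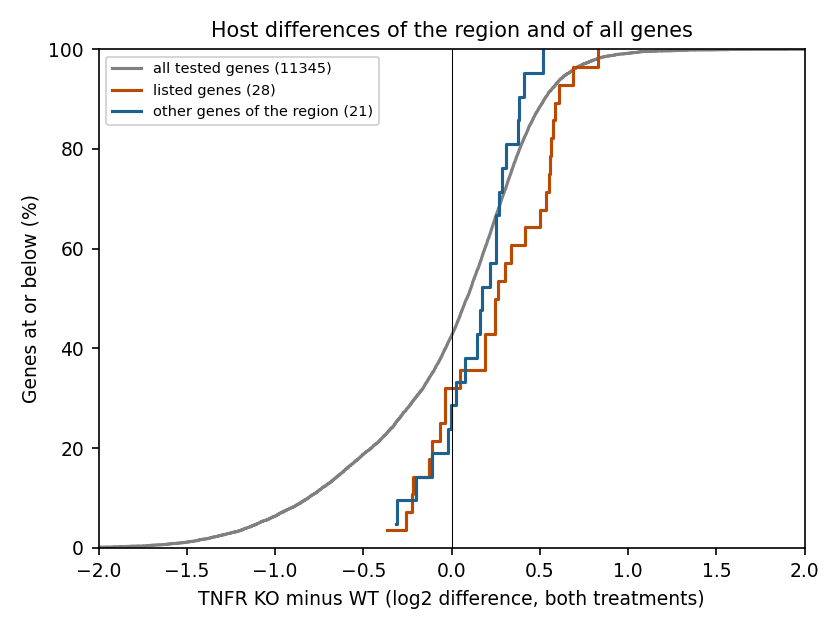
Share of genes (percent) at or below each host difference over both treatments (log2, TNFR KO minus WT) for the 28 flanking genes, the 21 other tested genes of the region and all 11345 tested genes; the most extreme of all genes, from -4.01 to 2.88, lie beyond the axis. The medians were 0.25, 0.17 and 0.09, and the flanking genes lie within -0.37 to 0.83.

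The share of genes called did not fall steadily with distance from the receptor. Within 15 places of Tnfrsf1a, 6 of 15 tested genes of the array were called (40.0%), with a median of 0.31. Within 50 places, these 15 included, 10 of 49 were (20.4%). Regardless of sign, the median of the 15 was 0.31, against 0.33 over all genes, and 46.7% were over 0.5, against 30.3%. Among the 28 tested genes on the list, it was 0.55 for the 11 within 15 places and 0.26 for the 17 farther away. The 21 tested genes within 50 places that are not among the 38 gave 1 call (4.76%), against 32.1% of the 28 tested genes on the list. That call was on Ncapd2, a condensin subunit, at 0.52 (adjusted p = 0.0428 by limma), and the median of the 21 was 0.17. From 51 to 200 places away, 32 of 126 tested genes were called (25.4%), 14 higher and 18 lower. On other chromosomes 31.0% were called, and without the flanking genes chromosome 6 stood at 28.6%, within the 23.4% to 39.7% of the single chromosomes. The nearest genes illustrate the mixture: Vwf at place 3 was called, Plekhg6 at place 1 and Tapbpl at place -5 were not, and Vamp1 at place -6 was.

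The other targeted gene, Tnfrsf1b, has its own flank in the same hosts. Of 33 tested genes within 50 places of it, 11 were called (33.3%), 8 higher and 3 lower, with a median of 0.29. Its 3 lower calls all lay below the lowest of the Tnfrsf1a flank, which was -0.37. They were Tardbp, an RNA-binding protein gene, at -0.65 (adjusted p = 0.0124), Zfp991 at -1.82 (adjusted p = 0.000238) and Zfp979 at -1.67 (adjusted p = 0.000282). Zfp991 and Zfp979 are zinc finger genes of a family of close copies, which can share probes, so which copy these probe sets measure is uncertain. The highest calls there were 2510039O18Rik at 0.89 (adjusted p = 0.00259) and Casz1, a zinc finger transcription factor, at 0.84 (adjusted p = 0.0110). No test compared the 2 flanks.

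In untreated tumours alone, 2 flanking genes were higher in the deficient hosts by at least 2-fold, against 8.31% of all tested genes past the same rule in either direction, 2.06% higher and 6.25% lower. These were Vwf and Cd9, the third and second places from the receptor. The test here was limma on the 8 arrays, which measures the pools against the spread of duplicate arrays only. Vwf differed by 1.07 ± 0.21 (SE, log2; adjusted p = 0.00695). Cd9 had signals of 1916 and 2121 in the wild-type and 4125 and 4156 in the deficient untreated pool, a difference of 1.03 ± 0.071 (adjusted p = 0.000216) or 2.05-fold. The duplicates of Cd9 were close, but both differences were near the 2-fold limit. Without replicate 1 of the untreated wild-type pool Cd9 stood at 0.96 and Vwf at 0.80, both below 2-fold. Ptpn6, at 0.88 and not called with all arrays, stood at 1.47 without that replicate and at 0.29 without replicate 2. Its duplicates in that pool had signals of 1187 and 514. Without replicate 1 of the untreated deficient pool Vwf stood at 0.95, with a pseudocount of 64 at 0.97, and with median centring at 0.87, where Cd9 was at 0.84, each below 2-fold. Cd9 is also made by keratinocytes, of whose 6 markers both that were tested, Krt5 and Sprr1a, were called higher in the deficient hosts, with summed signals over the 6 of 172 to 176 and 269 to 297 in untreated and irradiated wild-type tumours, and 1375 to 1617 and 301 to 381 in deficient ones; their part in the Cd9 values was not tested. Without the 2-fold condition 12 of the 28 passed, 10 higher and 2 lower (42.9%), against 50.2% of all genes. Over the 28 genes the median was 0.20 and 21 were positive, against a median of 0.08 over all genes. With median centring the median of the 28 was 0.0036, with 14 positive, and that of all genes was -0.12, with 38.1% positive.

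In irradiated tumours, limma called 0 of the 28 genes at 2-fold, against 8.22% of all genes in either direction, 0.793% higher and 7.43% lower. Without the 2-fold condition 16 passed an adjusted p of 0.05 (57.1%), 11 higher and 5 lower, against 55.7% of all genes, and 17 an unadjusted p of 0.05 (60.7%), against 61.3%. These shares were near those of the whole array. The median was 0.28 with 21 positive, against 0.06 over all genes. Among the 28 genes, 17 were positive and 3 negative in both treatments and 8 had opposite signs, against 45.0%, 33.4% and 21.6% of all tested genes. On this scaling, 20 of the 28 thus had the same sign in both pairs of pools.

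**Figure D4:**
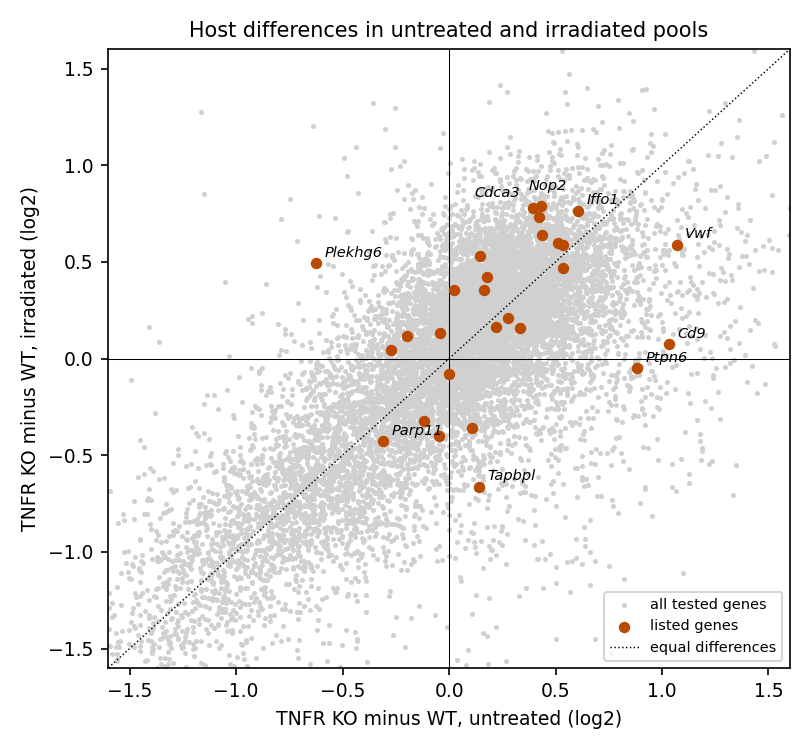
Host difference (log2, TNFR KO minus WT) in irradiated against untreated pools; orange points are the 28 tested flanking genes, grey points all tested genes, of which the most extreme lie beyond the axes, and the dotted line marks equal differences. On the authors' scaling 17 of the 28 are positive in both, and Cd9 lies at 1.03 untreated and 0.08 irradiated.

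Cd9 had the same sign in both pairs of pools, but its host differences were the most clearly unequal in size among the 28. Its signal in irradiated tumours was 2532 and 2423 in wild-type and 2669.8 and 2552 in deficient hosts, so that the hosts were nearly level after radiation. The difference between its host differences was -0.96 ± 0.10 (irradiated minus untreated; adjusted p = 0.00748 by limma), just under 2-fold, and it passed 2-fold without replicate 2 of the untreated wild-type pool, at -1.03. At 2-fold, 0 of 28 were called, against 2.21% of all genes, 0.159% upward and 2.05% downward; 9 of the 28 had an unadjusted p below 0.05 (32.1%), against 28.8% of all genes, and 3 an adjusted p below 0.05 without the 2-fold condition, against 9.55%. Besides Cd9, Ptms at -0.36 (adjusted p = 0.0453) and Mlf2 at 0.33 (adjusted p = 0.0485) also passed the adjusted p with smaller sizes, but neither did with any 1 array left out, at adjusted p of 0.0829 to 0.131 over the 8 refits, nor Ptms with median centring, at -0.13 (adjusted p = 0.394). Ptms was nearly equal between hosts untreated, at 8238 and 8369.6 against 8118 and 7968, and lower in the deficient host after radiation, at 7241 and 7149 against 9749.8 and 9295. Mlf2 was likewise level untreated, at 9114 and 9144 against 9232 and 9321, and higher in the irradiated deficient pool, at 10935 and 11203 against 8570.0 and 8762. Plekhg6 had a larger difference, 1.12 ± 0.46, but its duplicates of 225 and 112 in the irradiated deficient pool differed 2-fold and it did not pass (adjusted p = 0.174).

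Radiation changed 1 of the 28 genes over both hosts, against 1.90% of all tested genes, 1.55% higher and 0.353% lower. Eno2, the enolase best known from neurons and also made by other cells under low oxygen, went from 423 and 427 to 911 and 778 in wild-type and from 496 and 543 to 1009 and 947 in deficient hosts. Every irradiated array lay above every untreated one, and the effect was 0.93 ± 0.16 (adjusted p = 0.0161 by limma). Of the 4 nerve and Schwann cell markers measured, Mbp was the one bright enough to test, and it was not called with radiation or between hosts. The call on Eno2 was lost when any array except replicate 2 of the irradiated wild-type pool was left out, at 0.92 and 0.93 without replicates 1 and 2 of the untreated wild-type pool, 0.87 without replicate 1 of the irradiated wild-type pool, 0.90 and 0.96 without those of the untreated and 0.91 and 0.95 without those of the irradiated deficient pool. Chd4 had a radiation effect of -0.48 (adjusted p = 0.203) and Vamp1 one of 0.37 (adjusted p = 0.284), both unadjusted p below 0.05 and neither called. The median of the 28 was 0.10, against -0.02 over all genes.

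**Figure D5:**
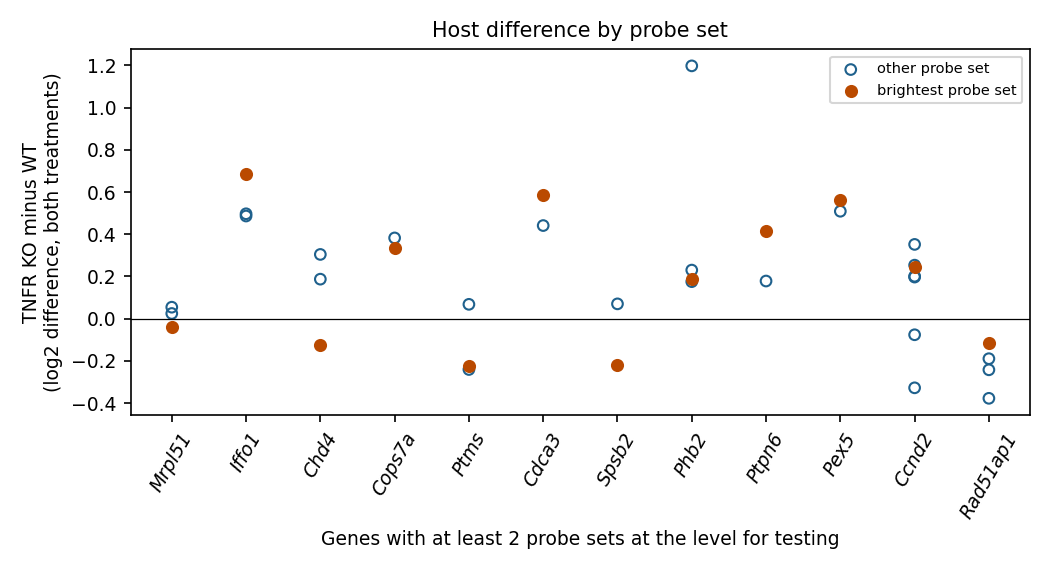
Host difference over both treatments (log2, TNFR KO minus WT) of each probe set at the level for testing, for the 12 flanking genes with at least 2; each point is 1 probe set, filled for the brightest of the gene. The probe sets of 7 genes lie on one side of 0 and those of 5 on both sides, and 1 of Phb2 stands at 1.20.

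Of the flanking genes, 12 had 2 or more bright probe sets, and their agreement bears on how far a single probe set speaks for a gene. In 7 all probe sets had the same sign. Iffo1 was positive in 3 of 3, from 0.49 to 0.68, Cdca3 in 2 of 2, at 0.44 and 0.59, and Pex5 in 2 of 2, at 0.51 and 0.56. Cops7a (0.34 and 0.38) and Ptpn6 (0.42 and 0.18) were positive in both, and Rad51ap1 was negative in all 4, from -0.38 to -0.11. Iffo1, Cdca3 and Pex5 thus did not rest on their brightest probe set alone for their direction. In 5 genes the signs were mixed: Mrpl51 from -0.04 to 0.05, Spsb2 at -0.22 and 0.07, Ptms from -0.24 to 0.07, Chd4 at -0.13, 0.19 and 0.30, and Ccnd2, for which 5 were positive and 2 negative, from -0.33 to 0.35. Phb2 was positive in 4 of 4, but unevenly. Its 3 bright probe sets, at signals of 11247 to 20249.6, differed by 0.18 to 0.23, whereas the dimmest gave 1.20, with signals of 275 and 331 untreated and 375 and 483 irradiated in wild-type hosts, and of 1077 and 1109 untreated and 749 and 565 irradiated in deficient hosts. Probe sets of one gene can lie in different transcripts, and where these probes lie was not analysed here.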

How the data were processed

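Whole-tumour RNA pools of 4 groups were each measured on 2 whole-genome Affymetrix mouse arrays. The deposited signals are intensity values on a linear scale, made with MAS5 per the submitters' processing notes, with no version given, and the array totals show that the authors scaled every array alike. Their number of arrays limits the precision. Of 45101 probe sets, the platform annotation gave 1 gene to 34945, several to 932 and none to 9160, and 64 were controls; 34741 of the 34945 matched the RefSeq gene table, with 0 symbols changed. Each gene took its brightest probe set. Values were log2(signal + 16), and folds are on that scale, which understates changes of dim genes. Genes with a mean at or above the median, 6.41, were tested with limma 3.58.1 in R 4.3.3, with Benjamini-Hochberg adjustment. Host and radiation effects were fitted to 4 pool means (1 residual and 9.52 prior degrees of freedom), called below an adjusted p of 0.05. Comparisons of single pools were fitted to 8 arrays (4 residual and 1.99 prior degrees of freedom), called below 0.05 at 2-fold or more, and measure array error only. The fits were tested on simulated data. The figures were drawn with matplotlib 3.10.9.

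Signals in all pools are given for flanking genes called in any comparison, the 6 of largest host effect, the 3 nearest to the receptor on each side, those whose bright probe sets differ in direction, and untested genes whose pools differ over 2-fold; other genes are called by their difference. Of neighbouring genes outside the list, up to 4 called per list are named. The genes and marker lists were chosen with earlier results of these data known. The alternatives were other scalings, pseudocounts, filters, probe set rules and error models, and each array left out.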

Additional observations from a re-analysis of the deposited data

Results flagged for a closer look

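In 3 flanking genes the host difference itself differed between irradiated and untreated pools by limma on the 8 arrays, a test against duplicate arrays of single pools. For Cd9 the difference between the host differences was -0.96 (irradiated minus untreated; adjusted p = 0.00748), with the deficient host above the wild type in both pairs of pools, by 1.03 untreated and by 0.08 irradiated. For Ptms it was -0.36 (adjusted p = 0.0453) and for Mlf2 0.33 (adjusted p = 0.0485). With any 1 array left out, Cd9 still reached an adjusted p below 0.05, at -1.03 to -0.88. Ptms and Mlf2 did not in any of the 8 such refits, at adjusted p of 0.0829 to 0.127 and of 0.0951 to 0.131.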

How the results depend on the processing

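In place of the 9 flanking genes called between hosts over both treatments, 5 of 29 tested were called after quantile normalisation, against 23.7% of all genes, 2 of 28 with arrays centred on their median, against 22.8%, and 0 of 34 where no filter was set, since limma then called 0 of 18193 genes, with 4487 at an unadjusted p below 0.05, 10 of them flanking genes. Treating the 8 arrays as separate samples gave 17 calls, 3 of them lower, and 6446 over all genes (56.8%) in place of 3504. Adding the replicate block gave 14, 2 of them lower, and 6106 over all genes (53.8%). With limma-trend, 11 were called, 1 of them lower, against 39.4% of all genes. The replicate numbers did not pair the arrays, since deviations of same-numbered arrays correlated at -0.032 to 0.052. Leaving out 1 array gave 2 to 6 flanking calls and 2034 to 2904 over all genes, the lowest without replicate 1 of the untreated wild-type pool. With radiation, 0 were called after quantile normalisation, without a pseudocount and with no filter (1998 genes, 4 of them flanking, at an unadjusted p below 0.05 in limma), 2 with a pseudocount of 64, limma-trend, separate arrays and the replicate block, and 0 to 1 without 1 array. In untreated pools 0 were called with median centring, 1 with a pseudocount of 64, 12 with no fold threshold (50.2% of all genes) and 1 to 2 without 1 array. In irradiated pools 16 were called with no fold threshold (55.7% of all genes) and 0 without any 1 array. For the difference between host differences, quantile normalisation gave 1, no fold threshold 3 (9.55% of all genes), and leaving out 1 array 0 to 1. The median of the flanking genes minus that of all genes, 0.17, stayed between 0.14 and 0.20 in every alternative run. No called flanking effect changed sign, whereas the uncalled host effects of Atn1 (-0.04 with median centring) and Clstn3 (0.09 with quantile normalisation) did; the cause of the lost calls was not tested. With 1 pool per group, no setting measures the spread between mice.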
